A study of Mus musculus with 9 samples.

Results

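Whole-testis RNA profiles of NELF-B cKO mice were compared with those of control mice at postnatal day 24 (PND24). For each mouse, the UMIs of every barcode in the deposited single cell matrix were added up, with no choice of cells, so that 1 profile stood for the whole cell suspension of 1 testis library. A UMI is a molecular tag that counts 1 captured transcript. The comparison used 6 of the 9 samples of the series, 4 control mice and 2 NELF-B cKO mice, and the 2 cKO mice are given one by one because they differed. The remaining samples, from TDP-43 cKO mice, entered only the statistical fit with its scaling and filter, and the means over 9 mice. No cell was left out for carrying Nelfb UMIs. NELF-B cKO mice carried a floxed and a null allele of Nelfb together with the Stra8-iCre transgene, whose recombinase is active in germ cells from the spermatogonial stage on, so that exons 1 to 4 can be removed there, though some germ cells escape excision at this age, while somatic cells keep the floxed allele beside the null allele. The mice labelled Control were littermates or mice of other litters, and the labels do not say which is which or give their Nelfb alleles. The labels do not say whether the mice of a group came from different litters, so the tests measure the spread between these mice only. The labels give the strain as C57BL/6, and the methods state a backcross to C57BL/6 J, and the libraries were made from dissociated testes that held germ and somatic cells.

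NELF is a complex that holds RNA polymerase II (Pol II) in a paused state shortly after the start of transcription, until the kinase P-TEFb releases the polymerase into the gene body. NELF-B is the subunit that Nelfb encodes. In the testis, spermatogonia (SG) divide and enter meiosis as spermatocytes (SC), which pair and recombine their chromosomes, pass through pachytene and diplotene and then divide to become round spermatids (RS). Around them, Sertoli cells nurse the germ cells inside the tubules, while Leydig cells make testosterone between the tubules. At PND24 the first wave of spermatogenesis has just reached the spermatid stages. In a sum over all cells, fewer cells of a type and less RNA per cell cannot be told apart. Levels are also relative to the total UMIs of each mouse. A fall in some transcripts can therefore raise the values of others, and a higher value need not mean more RNA or more cells.

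The sums held between 121692583 and 159407373 UMIs per mouse over 32285 genes. Barcodes past the filter of the study, over 1000 genes and under 10% mitochondrial UMIs, held 37.5%, 71.9%, 50.8% and 61.3% of the UMIs of control mice 1 to 4 and 54.9% and 52.97% of those of cKO mice 1 and 2. Mitochondrial transcripts made up 4.18%, 4.22%, 4.85% and 4.53% of the UMIs in the control mice, 4.00% in NELF-B cKO 1 and 8.93% in NELF-B cKO 2. That share was high in cKO 2 alone, and the group means of 6.47% and 4.45% were not separated beyond the spread between mice (exact permutation test, two-sided, p = 0.667, with 0.133 as the smallest p that 2 mice against 4 allow). Any 2 of the 6 libraries shared between 1 and 24 of the barcodes that passed the filter. In each mouse, markers of SG, SC, RS, Sertoli and Leydig cells were detected.

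Nelfb itself separated the genotypes. Levels are given as CPM, the UMIs of a gene scaled to the total of its mouse with TMM factors. Nelfb was found at 27.5, 26.0, 27.7 and 29.1 CPM in the 4 control mice, at 4.73 CPM in NELF-B cKO 1 and at 9.05 CPM in NELF-B cKO 2. Both cKO mice lay far below the narrow control range. The log2 fold change was -2.002 ± 0.28 (SE) in edgeR over all 9 mice of the series, with an adjusted p of 0.209 in edgeR's quasi-likelihood test and 1.9e-09 in DESeq2. Against the control mean, the log2 ratio was -2.52 in cKO 1 and -1.60 in cKO 2. Nelfb lies on chromosome 2 of GRCm38 from 25199712 to 25211489, on the minus strand. The window around its start, which the deletion of exon 1 reaches, is shown so that the targeted end of the gene can be seen (chr2:25211440-25211739, minus strand, RefSeq, GRCm38.p6). Capitals mark the first 50 bases from the start site on.
Nelfb: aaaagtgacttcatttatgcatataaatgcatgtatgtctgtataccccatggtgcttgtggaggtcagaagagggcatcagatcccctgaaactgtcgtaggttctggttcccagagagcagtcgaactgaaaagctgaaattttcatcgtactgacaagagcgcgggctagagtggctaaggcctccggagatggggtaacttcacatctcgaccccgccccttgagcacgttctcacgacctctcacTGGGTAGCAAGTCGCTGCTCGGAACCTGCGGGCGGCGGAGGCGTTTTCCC

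The other subunits of the complex differed between the cKO mice. Nelfe, which encodes the RNA-binding subunit, was measured at 160, 103, 141 and 137 CPM in the control mice and at 114 and 68.2 CPM in cKO mice 1 and 2. Nelfa stood at 38.9, 45.9, 41.7 and 42.7 CPM in the controls, 39.0 in cKO 1 and 28.7 in cKO 2. For Nelfcd, control values of 29.2, 25.1, 31.0 and 31.8 CPM stood beside 24.8 and 28.0 CPM in the cKO mice. Of these 3 subunits, Nelfe and Nelfa were below all controls in cKO 2 only, and Nelfcd in cKO 1 only. With Nelfb counted, 1 of 4 subunits lay below all controls in both cKO mice, beside 10.7% of all genes. This was 3 of 4 without control 2 (21.3% of all genes) or in barcodes past the filter (17.1%). It was 2 of 4 without control 1 (13.3%) or with DESeq2 size factors in place of TMM (14.7%). With total UMIs alone it was 1 of 4 (6.81%). Among 14 other pausing and elongation factors, which include the partners DSIF and P-TEFb, 1 lay above and 1 below all 4 controls in both cKO mice, where over all genes 16.5% lay above and 10.7% below. Without control 1 or control 3, 2 lay above (18.6% and 17.8% of all genes), without control 2, 2 lay below (21.3%), and with total UMIs alone 3 lay above (19.3%) and 0 below. Taken by mouse, 11 of the 14 lay above all controls and 2 below in cKO 2, beside 43.4% and 41.6% of all genes. In cKO 1, 1 lay above and 4 below, beside 24.3% and 22.4%. The median log2 ratio to the control mean was -0.20 in cKO 1 and 0.77 in cKO 2. Larp7, the most abundant member of that list, belongs to the particle that holds P-TEFb inactive. It was at 407 to 597 CPM in the controls, 426 in cKO 1 and 119 in cKO 2. Aff1, a scaffold of the super elongation complex, stood at 9.29 to 15.8 CPM in the controls, 17.2 in cKO 1 and 46.8 in cKO 2. Hexim1, an inhibitor of P-TEFb, was at 19.9 to 24.8 CPM in the controls, 18.1 in cKO 1 and 72.8 in cKO 2.

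Across all 25540 genes tested, edgeR called 0 genes higher and 0 lower at an adjusted p under 0.05 (0% in both directions), and the smallest adjusted p was 0.209. The stricter thresholds of the study, an adjusted p under 0.01 with a log2 fold change of at least 1, also gave 0 in both directions on these edgeR values. The study set them on DESeq2 values with shrunken fold changes, in SG and early meiotic cells only. At an unadjusted p under 0.05, 4030 genes were higher (15.8%) and 736 lower (2.88%) in NELF-B cKO. DESeq2 on the same sums called 1053 genes higher (4.23%) and 173 lower (0.695%) of the 24882 to which it gave an adjusted p. Both cKO mice lay above all 4 control mice in 4202 genes (16.5%) and below all 4 in 2742 genes (10.7%), or 5410 without control 2. The share of higher genes depended on the scaling: with DESeq2 size factors in place of TMM, 3559 genes lay above (13.9%) and 3753 below (14.7%). The share of all genes below was 13.3% without control 1, 21.3% without control 2 and 6.81% with total UMIs alone. These shares are the background for the counts of list members given under the same settings.

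The 2 cKO mice departed from the controls to very different degrees. NELF-B cKO 1 lay above all controls in 6214 genes (24.3%) and below in 5730 (22.4%), while NELF-B cKO 2 lay above in 11091 (43.4%) and below in 10624 (41.6%). Any mouse, a control included, can lie outside the range of 4 others in many genes, and that share was not measured. Of 13324 genes with a mean of at least 5 CPM over the 9 mice, the log2 ratio to the control mean was at least 1 in 430 genes of cKO 1 and at most -1 in 96. In cKO 2 these numbers were 3027 and 3424. A log2 ratio of -2 or less was reached by 1 such gene in cKO 1, Nelfb, and by 2031 genes in cKO 2. Each cKO mouse was also tested alone against the 4 controls, with the lone mouse assumed to vary like the other groups. For cKO 1, 0 genes were called higher (0%) and 1 lower (0.00383%) of 26099, and that gene was Nelfb. For cKO 2, 6341 genes were called higher (24.5%) and 5940 lower (22.9%) of 25932.

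**Figure D1:**
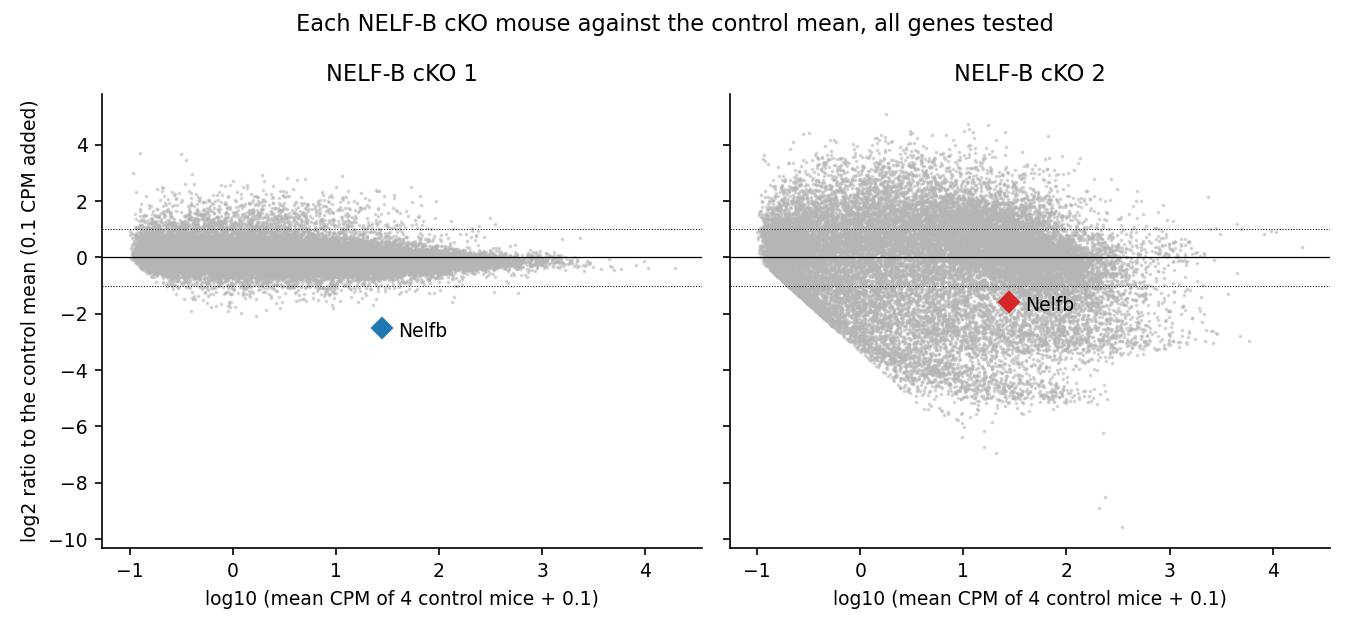
Each point is 1 of 25540 genes, with the log10 of the mean CPM of the 4 control mice plus 0.1 on the x axis and the log2 ratio of NELF-B cKO 1 (left) or NELF-B cKO 2 (right) to that mean on the y axis. Most genes of cKO 1 lie between the dotted lines at -1 and 1, with Nelfb below them at -2.52, while the genes of cKO 2 spread widely, and the sloping lower edge there is set by the 0.1 CPM added to both values.

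Markers of the earliest germ cells were described gene by gene, since few lay outside the control range in both cKO mice, although 9 of 10 lay above it in cKO 2, where 43.4% of all genes did. Lin28a, which encodes an RNA-binding protein of undifferentiated SG, was detected at 39.9, 22.7, 32.6 and 22.1 CPM in the controls, 108 in cKO 1 and 72.0 in cKO 2. Its log2 fold change of 1.62 ± 0.28 (SE) had an adjusted p of 0.209 in edgeR and 0.0032 in DESeq2. Zbtb16, which encodes the transcription factor PLZF, stood at 12.5, 18.2, 17.4 and 13.5 CPM in the controls beside 24.4 and 48.9 CPM in cKO mice 1 and 2. Both genes lay above all controls in both cKO mice, and Lin28a was the higher in cKO 1. Id4, a marker of the most immature SG, went the other way, with 117, 88.5, 105 and 101 CPM in the controls, 84.3 in cKO 1 and 43.0 in cKO 2. Of 10 tested markers of undifferentiated SG, 2 lay above and 1 below all controls in both mice, near the shares of 16.5% and 10.7% over all genes, and the median log2 fold change was 0.63 beside 0.02 over all genes. The median log2 ratio to the control mean was -0.16 in cKO 1 and 1.11 in cKO 2.

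Kit, the receptor that marks differentiating SG, was measured at 12.6, 19.7, 15.2 and 11.4 CPM in the controls, 30.0 in cKO 1 and 33.3 in cKO 2. Crabp1, a retinoic acid binding protein, stood at 25.4, 29.4, 27.3 and 19.3 CPM in the controls beside 41.1 and 48.2 CPM. These 2 genes were about as high in 1 cKO mouse as in the other, and DESeq2 gave them adjusted p-values of 0.036 and 0.041. Dmrtb1, a factor of the switch from SG division to meiosis, was at 674, 421, 466 and 515 CPM in the controls but 353 in cKO 1 and 60.0 in cKO 2. The list of 8 held 3 genes above and 1 below all controls in both mice, beside 16.5% and 10.7% over all genes.

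At meiotic entry, Stra8, the retinoic acid target whose promoter drives the iCre transgene, stood at 31.9, 46.7, 49.6 and 34.7 CPM in the controls, 59.6 in cKO 1 and 66.0 in cKO 2. Tex15, needed for recombination, was at 102, 132, 137 and 115 CPM beside 194 and 147 CPM. Both genes lay above the controls in each cKO mouse. Rec8, a meiotic cohesin, lay below them at 14.9 and 13.5 CPM, where control 2 at 15.0 CPM nearly touched cKO 1 and the other controls held 22.8 to 28.1 CPM. Rbm46, an RNA-binding protein that germ cells need to enter meiosis, was at 131 to 160 CPM in the controls, 129 in cKO 1 and 71.7 in cKO 2. Among 7 genes, 3 lay above and 2 below all controls in both cKO mice, beside 16.5% and 10.7% over all genes, and 4 lay below without control 1, beside 13.3%. Without control 3 (11.7% of all genes) or control 4 (11.6%), and with total UMIs alone (6.81%), 1 lay below.

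Genes of meiotic recombination and synapsis were lower more often than higher, except in the list of the break machinery, given below. Spo11, which encodes the enzyme that makes the meiotic breaks, was measured at 73.9, 63.4, 64.6 and 71.3 CPM in the controls, 53.1 in cKO 1 and 17.2 in cKO 2. Sycp1, a part of the synaptonemal complex, stood at 517, 740, 768 and 801 CPM in the controls beside 439 and 336 CPM. Hormad2, an axis protein that watches over synapsis, was at 48.0, 113, 71.0 and 86.5 CPM beside 45.2 and 32.7 CPM. In all 3 genes both cKO mice were below every control, by a wide margin in cKO 2 and a small one in cKO 1 for Hormad2. In the list of synapsis and axis genes, 5 of 14 lay below and 0 above all controls in both mice, beside 10.7% and 16.5% over all genes, with a median log2 fold change of -0.71. This count was 10 without control 1 (13.3% of all genes), 9 without control 2 (21.3%) and 2 when the sums were scaled by total UMIs alone (6.81%).

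Recombination lists are read against 10.7% of all genes below in both mice, 13.3% without control 1, 14.7% with DESeq2 size factors and 6.81% with total UMIs alone. Above all controls in both mice lay 16.5% of all genes. Crossover maturation had 6 of 13 genes below and 1 above, or 2 below with scaling by total UMIs alone. Cntd1, which is needed for crossover maturation, was at 119, 122, 115 and 131 CPM in the controls, 81.8 in cKO 1 and 28.0 in cKO 2. The gene above was Tex11, an X-linked crossover factor, with 30.2 to 44.2 CPM in the controls beside 61.7 and 52.1 CPM. Of 16 strand exchange genes, 3 lay below and 0 above, with 8 below without control 1 and 1 below with scaling by total UMIs alone. Meiob and Spata22, which encode partners in binding single-stranded DNA, were within the controls in cKO 1, with 33.1 CPM against 30.3 to 51.1 for Meiob and 6.66 CPM against 5.92 to 11.5 for Spata22, and below them in cKO 2 at 22.5 and 3.02 CPM. The 10 genes of the break machinery were divided, with 3 above, 1 below and a median log2 fold change of 0.00. The median log2 ratio was 0.04 in cKO 1 and 0.09 in cKO 2. Without control 1, or in barcodes past the filter (17.1% of all genes there), 2 lay below. In the piRNA pathway, which silences transposons and cleaves pachytene transcripts, 8 of 22 genes were below all controls in both mice and 0 above, with 14 below without control 1, 13 with DESeq2 size factors and 5 with total UMIs alone. Its helicase Ddx4 stood at 408 to 435 CPM in the controls, 366 in cKO 1 and 129 in cKO 2.

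The summed level of 8 pachytene markers was 10872, 6999, 8016 and 7947 CPM in the controls, 6585 in cKO 1 and 1283 in cKO 2. Most of this sum came from Ldhc, given below, in every mouse. Of the 8 markers, 4 lay below all controls in both mice (10.7% of all genes), and 6 without control 1 (13.3%). With scaling by total UMIs alone, 3 did (6.81%). In the sum, cKO 1 was just below the lowest control and cKO 2 far below it. Hspa2, a chaperone needed to finish meiosis, was at 923 to 1249 CPM in the controls, 843 in cKO 1 and 212 in cKO 2, and Ldhc, the sperm lactate dehydrogenase, at 4487 to 8032 beside 4416 and 748 CPM. Piwil1, the PIWI protein of pachytene, was at 443 to 504 CPM in the controls, 334 in cKO 1 and 94.9 in cKO 2. Axoneme genes, which SC begin to express for the later flagellum, were summed at 10707, 8528, 8724 and 8714 CPM in the controls, 7373 in cKO 1 and 1268 in cKO 2. Of 23 axoneme genes, 11 were below all controls in both cKO mice, and all 23 in cKO 2, beside 10.7% and 41.6% of all genes. Without control 2 the count in both mice was 18 (21.3% of all genes), and with scaling by total UMIs alone it was 3 (6.81%). Markers of late pachytene and diplotene SC summed to 667 to 941 CPM in the controls, 761 in cKO 1 and 244 in cKO 2, so cKO 1 was within the controls there.

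Transcripts of RS and sperm chromatin showed the widest gap between the cKO mice, and control 2 also held few of them. The 14 RS markers summed to 1439, 382, 925 and 939 CPM in control mice 1 to 4, 722 in cKO 1 and 49.6 in cKO 2. Acrv1, which encodes an acrosome protein, was measured at 99.2, 36.6, 69.9 and 84.2 CPM in the controls, 54.3 in cKO 1 and 2.77 in cKO 2. With all 4 controls, 0 of 14 RS markers lay below the controls in both cKO mice. Without control 2 this number was 12 of 14, and for 14 acrosome genes it went from 2 to 12, while the share over all genes went from 10.7% to 21.3%. The transition proteins and protamines, which pack sperm DNA, summed to 1447, 81.8, 1981 and 1234 CPM in the controls, 2243 in cKO 1 and 9.47 in cKO 2. Prm1, the first protamine, was at 369, 3.12, 657 and 360 CPM in the controls, 792 in cKO 1 and 0.36 in cKO 2. In this sum and in Prm1, cKO 1 was the highest of the 6 mice, cKO 2 the lowest and control 2 the next lowest, and 4 of the 5 genes lay above all controls in cKO 1, where 24.3% of all genes did.

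**Figure D2:**
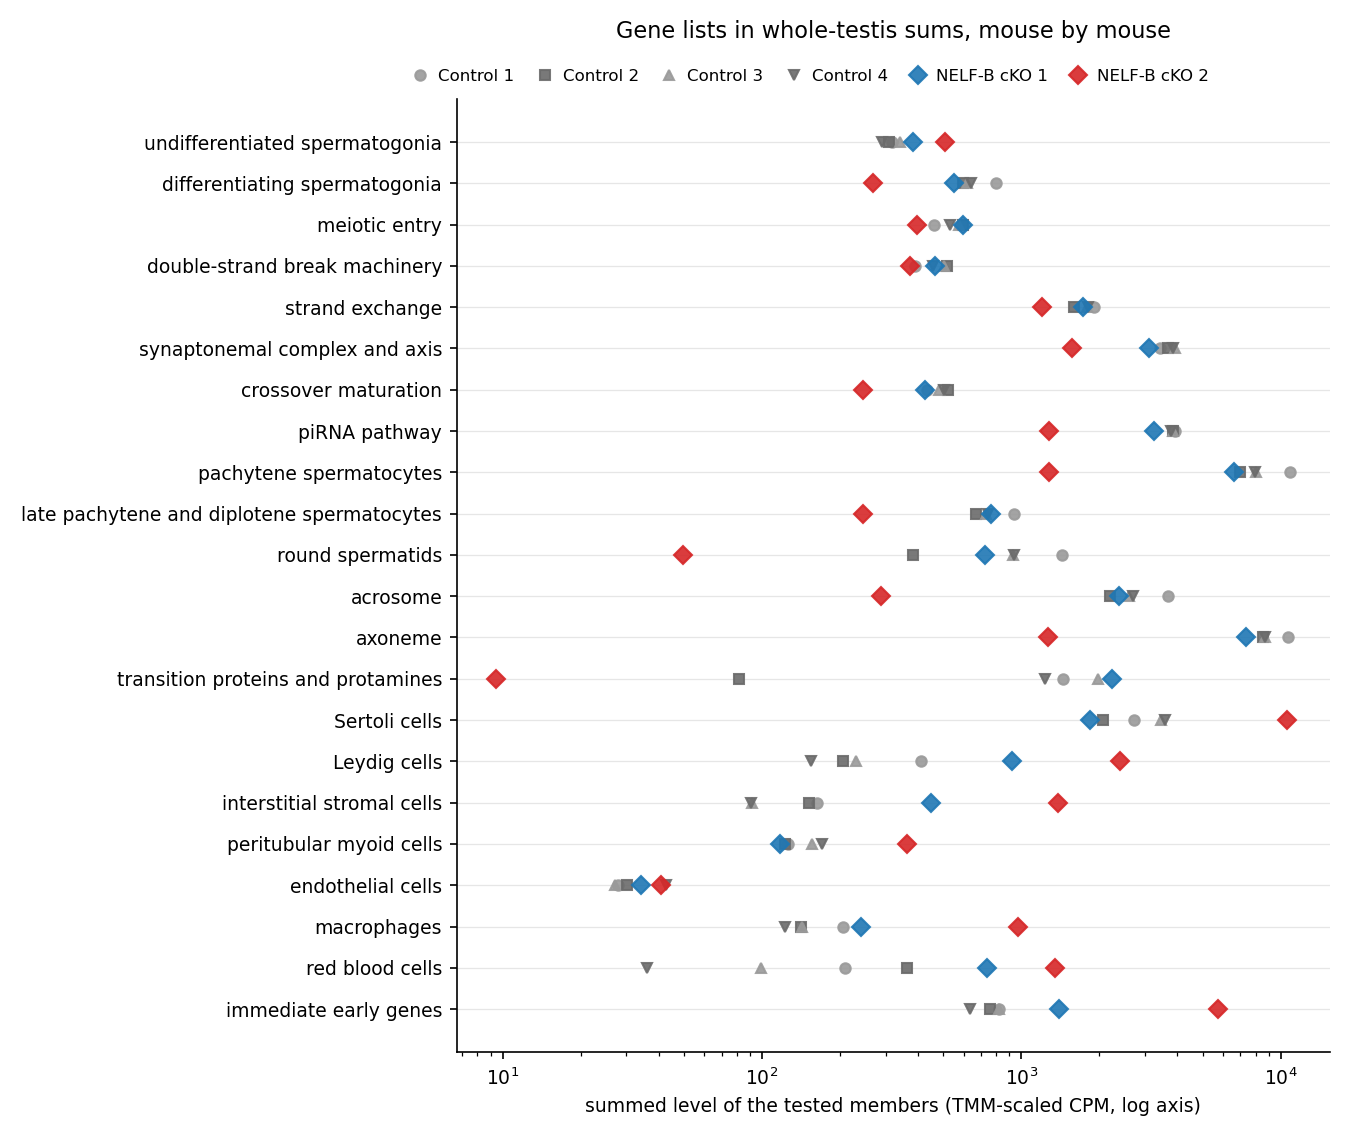
Each row is a gene list, and each point the summed CPM of its tested members in 1 mouse, on a log axis, with grey symbols for the 4 control mice and diamonds for the 2 NELF-B cKO mice. Germ cell lists from synapsis to RS lie lowest in cKO 2, Leydig, stromal, macrophage, red blood cell and immediate early genes lie above all controls in both cKO mice, and Sertoli genes lie below the controls in cKO 1 and above them in cKO 2.

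The 13 Leydig genes summed to 410, 205, 231 and 154 CPM in the controls, 922 in cKO 1 and 2402 in cKO 2, and 12 of 13 lay above all controls in both cKO mice, beside 16.5% of all genes. Cyp17a1, an enzyme of androgen synthesis, was measured at 114, 39.4, 41.3 and 20.1 CPM in the controls, 301 in cKO 1 and 469 in cKO 2. Cyp11a1, which starts steroid synthesis by cutting cholesterol, stood at 105, 32.8, 53.6 and 27.1 CPM beside 213 and 428 CPM. Lhcgr, the receptor for luteinizing hormone, was at 16.6, 11.9, 7.79 and 3.78 CPM beside 57.0 and 227 CPM, and Hsd3b6, an adult Leydig enzyme, at 47.0, 23.6, 22.4 and 7.25 CPM beside 130 and 556 CPM. The Leydig genes were also uneven among the controls, with control 1 the highest. DESeq2 called 3 of the 13, beside 4.23% of all genes, but left others, Lhcgr and Hsd3b6 among them, without an adjusted p.

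Stromal genes of the interstitium followed the Leydig genes. All 10 tested markers lay above the controls in both cKO mice, beside 16.5% of all genes, with sums of 164, 152, 91.9 and 90.5 CPM in the controls, 447 in cKO 1 and 1389 in cKO 2. Dcn, a matrix proteoglycan, was at 50.5, 44.7, 27.0 and 24.8 CPM in the controls beside 158 and 498 CPM. Tcf21, a transcription factor of stromal progenitors, was at 4.11, 4.54, 2.32 and 2.77 CPM beside 16.0 and 65.9 CPM. Macrophage markers lay above all controls in 11 of 13 genes, and in 5 of 13 in barcodes past the filter (22.7% of all genes there), with sums of 205, 142, 143 and 122 CPM in the controls, 241 in cKO 1 and 973 in cKO 2. C1qa, which encodes a chain of complement C1q, stood at 28.0, 16.2, 14.2 and 13.8 CPM beside 31.2 and 166 CPM. The gap to the highest control was small in cKO 1 for this gene. DESeq2 called 2 of the 10 stromal and 0 of the 13 macrophage genes higher, beside 4.23% of all genes. Any gene that it left without an adjusted p counts as not called.

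Globin transcripts, which mark red blood cells in the suspension, moved with these groups when all barcodes were summed. The 5 red blood cell genes summed to 209, 363, 99.5 and 36.2 CPM in the controls, 736 in cKO 1 and 1354 in cKO 2, and 4 of 5 lay above all controls in both cKO mice, beside 16.5% of all genes. DESeq2 called 0 of the 5 higher, beside 4.23% of all genes. In barcodes past the filter, 0 of the 5 lay above in both mice, beside 22.7% of all genes there. Hbb-bs, an adult beta globin, was measured at 114, 186, 54.9 and 16.6 CPM in the controls, 373 in cKO 1 and 728 in cKO 2. The part of this difference in the Leydig, stromal and macrophage results was not tested. Endothelial markers did not share the pattern, with sums of 27.9, 30.2, 27.1 and 42.8 CPM in the controls, 34.3 in cKO 1 and 40.9 in cKO 2. Relative to Sertoli genes, the Leydig sum was 0.151, 0.0988, 0.0667 and 0.0431 in the controls, 0.502 in cKO 1 and 0.227 in cKO 2, so that this ratio also lay above all controls in both mice. The Sertoli sum itself was below all controls in cKO 1, which raises this ratio, and above them in cKO 2, which lowers it.

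Sertoli markers lay on opposite sides of the controls in the 2 cKO mice when all barcodes were summed. Their sum was 2721, 2071, 3462 and 3575 CPM in the controls, 1836 in cKO 1 and 10586 in cKO 2. In cKO 1, 14 of 15 markers lay below all controls, beside 22.4% of all genes, and in cKO 2 all 15 lay above, beside 43.4%. Clu, which encodes clusterin, was at 491, 367, 616 and 663 CPM in the controls, 349 in cKO 1 and 2121 in cKO 2. Amh, the hormone of immature Sertoli cells, stood at 3.39, 2.57, 4.45 and 5.72 CPM beside 1.64 and 22.7 CPM. Peritubular myoid genes were less clear, with 2 of 9 above all controls in both mice, near the 16.5% of all genes, and their actin Acta2 was at 14.5 to 29.7 CPM in the controls, 6.98 in cKO 1 and 60.6 in cKO 2. In barcodes past the filter the Sertoli sum of cKO 1 was within the controls, at 1139 CPM against 1090 to 1478, and that of cKO 2 above them at 3739 CPM. For the Sertoli genes, the mean of the cKO group is therefore no summary of either mouse.

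Immediate early genes, which cells switch on within minutes of a stimulus and many of which are textbook cases of paused Pol II, were higher in both cKO mice. Of 22 genes, 17 lay above all controls in both mice and 0 below, and DESeq2 called 14 higher, where over all genes 16.5% lay above and DESeq2 called 4.23% higher. In barcodes not past the filter 8 of 22 lay above in both mice, beside 7.52% of all genes there. The median log2 fold change was 2.22, with a median log2 ratio to the control mean of 0.62 in cKO 1 and 2.89 in cKO 2. Fos was measured at 97.4, 106, 100 and 59.6 CPM in the controls, 239 in cKO 1 and 1091 in cKO 2, with a log2 fold change of 2.87 ± 0.72 (SE) and an adjusted p of 0.209 in edgeR and 0.015 in DESeq2. Jun, its partner in AP-1, stood at 105, 104, 114 and 91.1 CPM beside 181 and 821 CPM, and Junb at 89.5, 68.5, 81.4 and 63.5 CPM beside 154 and 652 CPM. All 3 genes lay well above the controls in each cKO mouse. The mitochondrial share (8.93% in cKO 2 and 4.00% in cKO 1) and the macrophage sum (973 and 241 CPM) were also higher in cKO 2, as were the Sertoli, Leydig, stromal and red blood cell sums and the median UMIs of barcodes past the filter, at 17312.5 in cKO 2, 5165 in cKO 1 and 1754 to 6369 in the controls. The part of these values in this result was not tested.

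Promoter windows were searched on both strands for TGACGT, the core of the cAMP response element, because several immediate early genes hold it. A high share in that list was therefore in part set by the choice of motif. Windows run from 250 bases before to 50 bases after a start site in RefSeq (GRCm38.p6), and 17413 of the tested gene symbols had at least 1. Of 18 immediate early genes with a window, 6 held TGACGT (33.3%), against 10.3% of all genes with a window, 8.9% of those with both cKO mice above the controls and 11.4% of those with both below. The share was not particular to this list, as 5 of 12 pausing and elongation factors (41.7%) and 2 of 6 testis glycolysis isoforms (33.3%) held it too. The other motifs searched were TATAAA, in 11.8% of all genes and 16.7% of immediate early genes, and AACNG, in 82.0% and 77.8%. The windows of the 4 genes among the 6 that had both cKO mice above all controls are printed here, in the direction of transcription, with TGACGT or its reverse complement in capitals. A palindromic site is matched on both strands. They lie at chr12:85473640-85473939, plus strand, at chr1:191183284-191183583, minus strand, at chr17:26508423-26508722, minus strand, and at chr1:134079106-134079405, minus strand.
Fos: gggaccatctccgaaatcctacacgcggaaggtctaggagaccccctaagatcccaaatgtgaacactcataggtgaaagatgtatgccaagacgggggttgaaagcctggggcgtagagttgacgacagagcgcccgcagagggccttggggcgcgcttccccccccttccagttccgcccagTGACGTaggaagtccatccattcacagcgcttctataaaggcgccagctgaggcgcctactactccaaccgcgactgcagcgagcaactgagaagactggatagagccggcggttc
Atf3: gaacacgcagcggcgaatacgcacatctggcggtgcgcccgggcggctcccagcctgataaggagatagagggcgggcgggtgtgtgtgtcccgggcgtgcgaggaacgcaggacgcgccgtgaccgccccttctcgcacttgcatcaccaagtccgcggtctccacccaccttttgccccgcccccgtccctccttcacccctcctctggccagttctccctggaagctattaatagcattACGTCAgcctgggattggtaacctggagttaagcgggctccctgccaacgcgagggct
Dusp1: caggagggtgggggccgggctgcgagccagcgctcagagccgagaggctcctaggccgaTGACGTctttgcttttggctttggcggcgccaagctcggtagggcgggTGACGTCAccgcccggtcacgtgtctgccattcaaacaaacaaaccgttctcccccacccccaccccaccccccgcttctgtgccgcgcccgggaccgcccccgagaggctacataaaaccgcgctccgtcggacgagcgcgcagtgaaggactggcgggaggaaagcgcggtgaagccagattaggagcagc
Btg2: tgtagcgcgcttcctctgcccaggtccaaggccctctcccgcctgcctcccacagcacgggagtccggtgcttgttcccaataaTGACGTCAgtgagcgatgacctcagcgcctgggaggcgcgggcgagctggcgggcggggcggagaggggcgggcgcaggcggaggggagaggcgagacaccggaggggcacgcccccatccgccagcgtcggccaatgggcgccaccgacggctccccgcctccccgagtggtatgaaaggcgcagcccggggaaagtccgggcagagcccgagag

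Atf3, a stress-induced partner of Jun, was at 12.5, 18.6, 15.4 and 11.1 CPM in the controls, 20.95 in cKO 1 and 149 in cKO 2. Dusp1, a phosphatase that shuts off MAP kinases, stood at 23.9, 22.1, 21.1 and 19.3 CPM beside 40.9 and 109 CPM, and Btg2, an antiproliferative factor, at 34.8, 35.2, 40.7 and 26.2 CPM beside 71.3 and 260 CPM. In all 3 genes cKO 1 was above the highest control, and cKO 2 several times higher still. The remaining genes with the motif, Egr2 and Nr4a3, were within or below the controls in cKO 1, at 2.26 and 1.54 CPM, and above them in cKO 2, at 22.7 and 7.21 CPM. These 5 genes were chosen for the motif after their values were known.

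Stress and metabolic groups were less uniform. Of 20 p53 targets and apoptosis genes, 5 lay above and 2 below all controls in both mice, and 17 lay above in cKO 2, where 43.4% of all genes did. The shares over all genes for both mice were 16.5% above and 10.7% below, and with DESeq2 size factors the list had 3 above and 3 below. Eda2r, a p53 target, was measured at 0.36, 0.47, 0.33 and 0.28 CPM in the controls, 0.84 in cKO 1 and 1.23 in cKO 2, with an adjusted p of 0.001 in DESeq2, while Mdm2, which keeps p53 in check, was at 128 to 135 CPM in the controls, 123 in cKO 1 and 70.1 in cKO 2. Heat shock genes divided into 2 above and 2 below of 14, near the shares over all genes, and 5 lay above with scaling by total UMIs alone, where 19.3% of all genes did. Hspe1, a mitochondrial chaperonin subunit, stood at 174 to 204 CPM in the controls beside 282 and 588 CPM, whereas Hsp90aa1, abundant in germ cells, stood at 3231 to 3976 CPM beside 2757 and 1491 CPM. Cholesterol synthesis held 11 of 21 genes above and 1 below, beside 16.5% and 10.7% of all genes, with a median log2 fold change of 1.20. The median log2 ratio was 0.28 in cKO 1 and 1.74 in cKO 2, and in barcodes not past the filter 2 of 21 genes lay above in both mice, near the 7.52% of all genes there. Nsdhl, an X-linked enzyme of that pathway, was at 9.03, 7.06, 7.56 and 6.98 CPM in the controls, 14.9 in cKO 1 and 48.6 in cKO 2.

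Glycolytic enzymes come in somatic and in testis forms. The sum of the testis forms was 5.89 to 8.12 times that of the somatic forms in the controls, 5.32 times in cKO 1 and 0.633 times in cKO 2. Pgk1, the X-linked form that SC silence, was at 16.6, 13.6, 16.6 and 16.3 CPM in the controls beside 20.3 and 67.4 CPM, and Pgk2, its autosomal testis copy, at 178, 121, 149 and 153 CPM beside 132 and 11.1 CPM. The X-linked copy lay above all controls in both cKO mice, and the testis copy below them in cKO 2 only. Among 83 ribosomal protein genes, 7 lay above and 0 below all controls in both mice, beside 16.5% and 10.7% of all genes. In cKO 2, 56 lay above and 5 below, beside 43.4% and 41.6% of all genes. In cKO 1, 8 lay above and 4 below, beside 24.3% and 22.4%. Their median log2 ratio was -0.06 in cKO 1 and 0.41 in cKO 2. The 13 mitochondrially encoded genes were at 41998 to 52378 CPM in sum in the controls, 40310 in cKO 1 and 92059 in cKO 2.

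The genes with the largest positive log2 fold changes were taken from those with a mean of at least 5 CPM, both cKO mice above the controls and an unadjusted p under 0.05. Cp, which encodes the copper carrier ceruloplasmin, was measured at 6.12, 4.93, 5.17 and 3.34 CPM in the controls, 34.5 in cKO 1 and 102 in cKO 2, with a log2 fold change of 3.81 ± 0.80 (SE) and a DESeq2 adjusted p of 0.00087. Cxcl10, a chemokine induced by interferon, stood at 12.3, 14.0, 14.3 and 4.79 CPM beside 85.3 and 267 CPM, and Cxcl1, a chemokine for neutrophils, at 14.2, 13.6, 15.0 and 6.74 CPM beside 55.6 and 275 CPM. These 3 genes were clear of the controls in each cKO mouse. Trf, the iron carrier transferrin, was at 7.51 to 14.7 CPM in the controls, 29.6 in cKO 1 and 294 in cKO 2. Ces1d, Ass1, Vegfd, Nupr1 and the Leydig genes Lhcgr and Hsd3b6 complete the 10 largest, with log2 fold changes of 3.71 to 4.31.

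The genes furthest below the controls were likewise taken from those with a mean of at least 5 CPM and an unadjusted edgeR p under 0.05. Both cKO mice had to lie below the controls. Genes lowered alike in both mice pass this rule more easily, so likeness between the mice is partly set by the choice. Tex101, a germ cell surface protein, was measured at 586, 484, 610 and 634 CPM in the controls, 243 in cKO 1 and 215 in cKO 2. Its log2 fold change was -1.34 ± 0.28 (SE), with a DESeq2 adjusted p of 0.0092. Vamp9 stood at 17.1, 19.5, 20.0 and 21.8 CPM in the controls beside 7.63 and 7.13 CPM, with -1.41 ± 0.35 (SE) and 0.025. Syt5, a synaptotagmin, was at 7.62 to 8.44 CPM in the controls, 3.59 in cKO 1 and 1.35 in cKO 2, and Prss38, a serine protease, at 6.91 to 10.5 CPM beside 3.94 and 1.72 CPM. Art1, 2210011C24Rik, 4930558K02Rik, Gm12925 and Kcnab3os followed, with log2 fold changes of -1.38 to -1.68. Nelfb had the largest negative value among the genes taken by this rule.

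**Figure D3:**
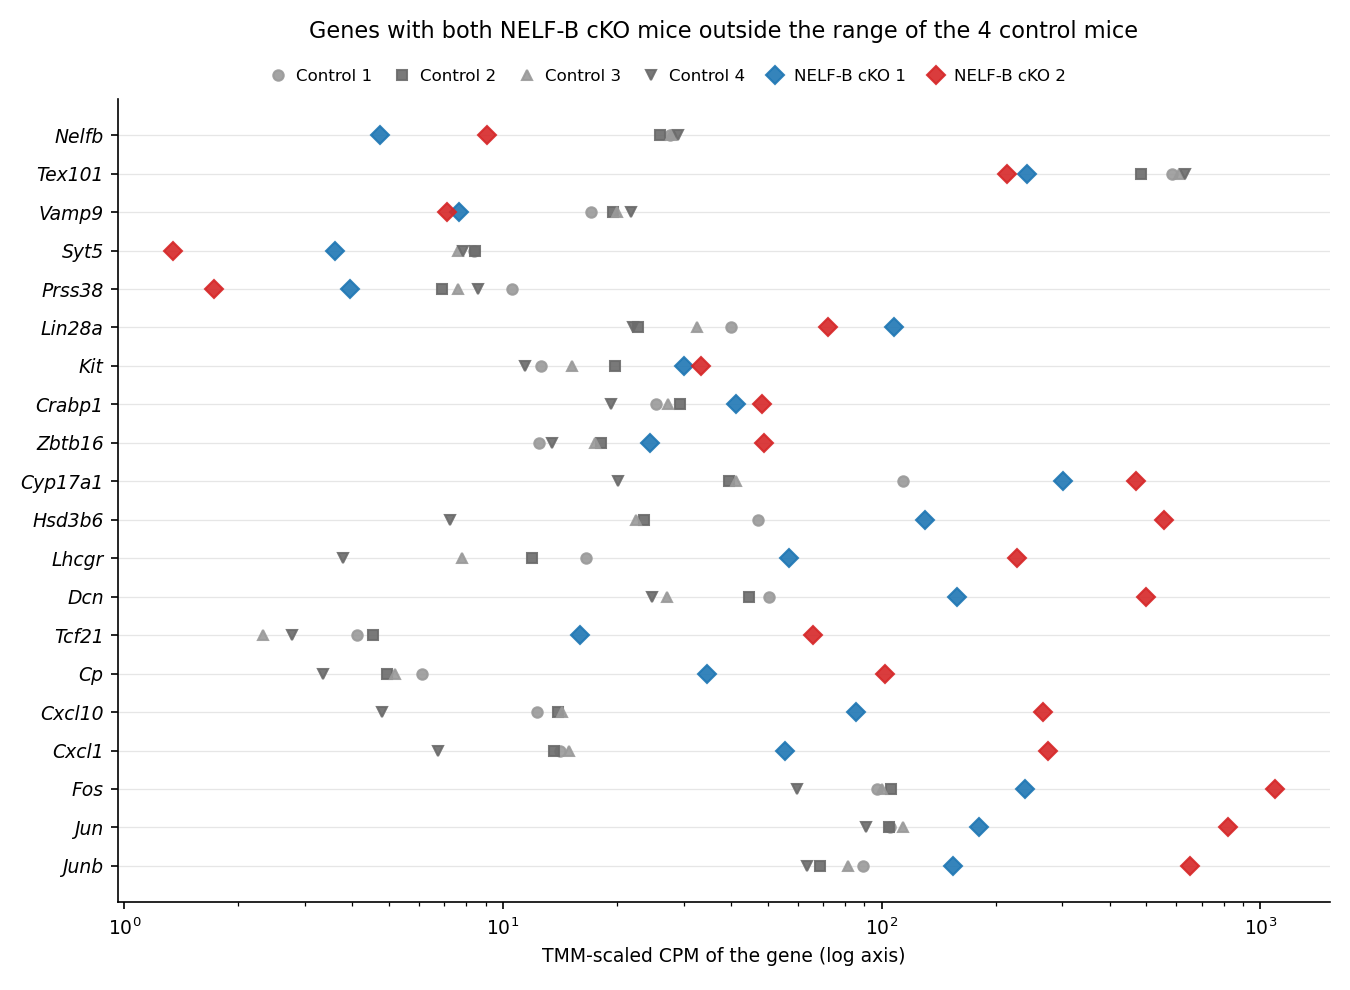
Each row is a gene with both NELF-B cKO mice outside the range of the 4 control mice, and each point the TMM-scaled CPM of 1 mouse on a log axis. Tex101 and Vamp9 lie at nearly the same level in both cKO mice, Lin28a lies higher in cKO 1 than in cKO 2, and the Leydig, stromal and immediate early genes lie highest in cKO 2.

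X-linked genes stood apart from autosomal genes. Of 912 X-linked genes, 324 lay above and 14 below all controls in both cKO mice, against 3871 above and 2721 below of 24489 autosomal genes. The median log2 fold change was 0.72 on the X chromosome and 0.01 on the autosomes. Relative to the control mean, the median log2 ratio of the X-linked genes was 0.18 in cKO 1 and 0.93 in cKO 2, while each control mouse relative to the mean of the other 3 gave -0.11 to 0.04. Both cKO mice were above this span, and cKO 2 by far. Y-linked genes were few, 91, and scattered widely among the controls as well, from -0.70 to 0.85, with 0.07 in cKO 1 and -2.86 in cKO 2. Their summed level did not follow this median. It was 322 to 622 CPM in the controls, 511 in cKO 1 and 413 in cKO 2. On chromosome 14 the median log2 ratio of cKO 2 was -0.58, and on the other autosomes it lay between -0.15 and 0.13. Protein-coding genes had a median log2 fold change of 0.12 and lncRNA genes of -0.28. The median log2 ratio of protein-coding genes was -0.05 in cKO 1 and 0.20 in cKO 2. That of lncRNA genes was -0.01 in cKO 1 and -0.69 in cKO 2. Protein-coding genes divided into 4 equal classes by gene length had median log2 fold changes of 0.10 to 0.14. The median log2 ratios of these classes were -0.07 to -0.04 in cKO 1 and 0.17 to 0.22 in cKO 2. Divided into 4 classes by level, from low to high, protein-coding genes had median log2 fold changes of 0.28, 0.39, 0.10 and -0.10. The median log2 ratios were 0.13, 0.01, -0.12 and -0.11 in cKO 1 and 0.18, 0.62, 0.25 and -0.11 in cKO 2. In pachytene SC the X chromosome is silenced, and the pachytene marker sum given above was lowest in cKO 2 as well. The part of SC numbers in the X-linked result was not tested.

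**Figure D4:**
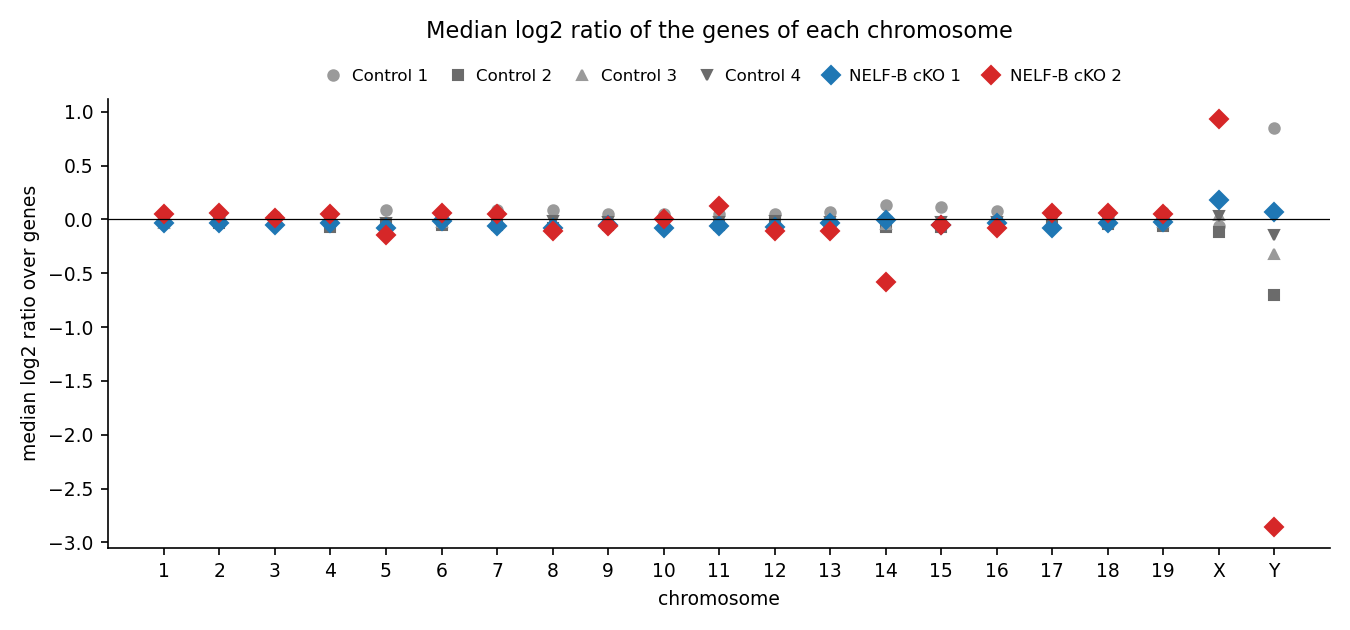
Points give the median log2 ratio of the genes of a chromosome in 1 mouse, for the NELF-B cKO mice against the mean of the 4 controls and for each control mouse against the mean of the other 3. The X chromosome lies at 0.18 in cKO 1 and 0.93 in cKO 2, above the 4 control mice, and the Y chromosome at -2.86 in cKO 2.

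The cKO mice were also set against each other. Prm1, Prm2, Tnp2, 1700042G07Rik and H2al2a had the largest ratios of cKO 1 to cKO 2. Tnp2, a transition protein, was at 453 CPM in cKO 1 and 0.55 in cKO 2, beside 275, 5.92, 420 and 254 CPM in the controls. In the other direction stood H2-Q10, Amh, Spp1, Igfbp3 and Thbs1. Spp1, which encodes osteopontin, was at 3.41 CPM in cKO 1 and 42.8 in cKO 2, beside 6.00 to 11.1 CPM in the controls. Igfbp3, a binding protein of insulin-like growth factors, had both cKO mice above the controls, at 2.27 and 27.0 CPM beside 0.77, 2.24, 1.00 and 1.41 CPM, where cKO 1 was next to control 2.

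Since the sums take every barcode, the lists were also summed over parts of the barcodes. Leydig genes lay above all controls in both cKO mice in barcodes past the filter, at 1417 and 3905 CPM against 169 to 844, and in barcodes not past it, at 379 and 648 CPM against 120 to 149. Stromal genes did so as well, with 10 of 10 genes above in both parts. Macrophage genes did not, since past the filter the sum of cKO 1 was within the controls, at 364 CPM against 152 to 399, and 5 of 13 genes were above in both mice. Globin genes lay above the controls in barcodes not past the filter, at 1722 and 2571 CPM against 91.1 to 1035, but not in those past it, at 83.8 and 26.2 CPM against 1.47 to 85.7. Immediate early genes were above the controls in both cKO mice in barcodes past the filter, at 2055 and 7991 CPM against 607 to 1208. In the rest of the barcodes cKO 1 was within the controls, at 697 CPM against 591 to 789, and cKO 2 above them at 2915 CPM. Synapsis and axis genes were below the controls in both mice past the filter, at 2930 and 1839 CPM against 3596 to 4438, while in the rest cKO 1 was within them, at 3756 CPM against 3087 to 3857. Past the filter, 8 of 8 pachytene markers and 11 of 14 synapsis and axis genes lay below the controls in both mice, and in the rest of the barcodes 0 of 8 and 0 of 14 did. Over all genes these shares were 17.1% and 3.45%. There the pachytene sum of cKO 1 was within the controls, at 8666 CPM against 4807 to 13239.

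**Figure D5:**
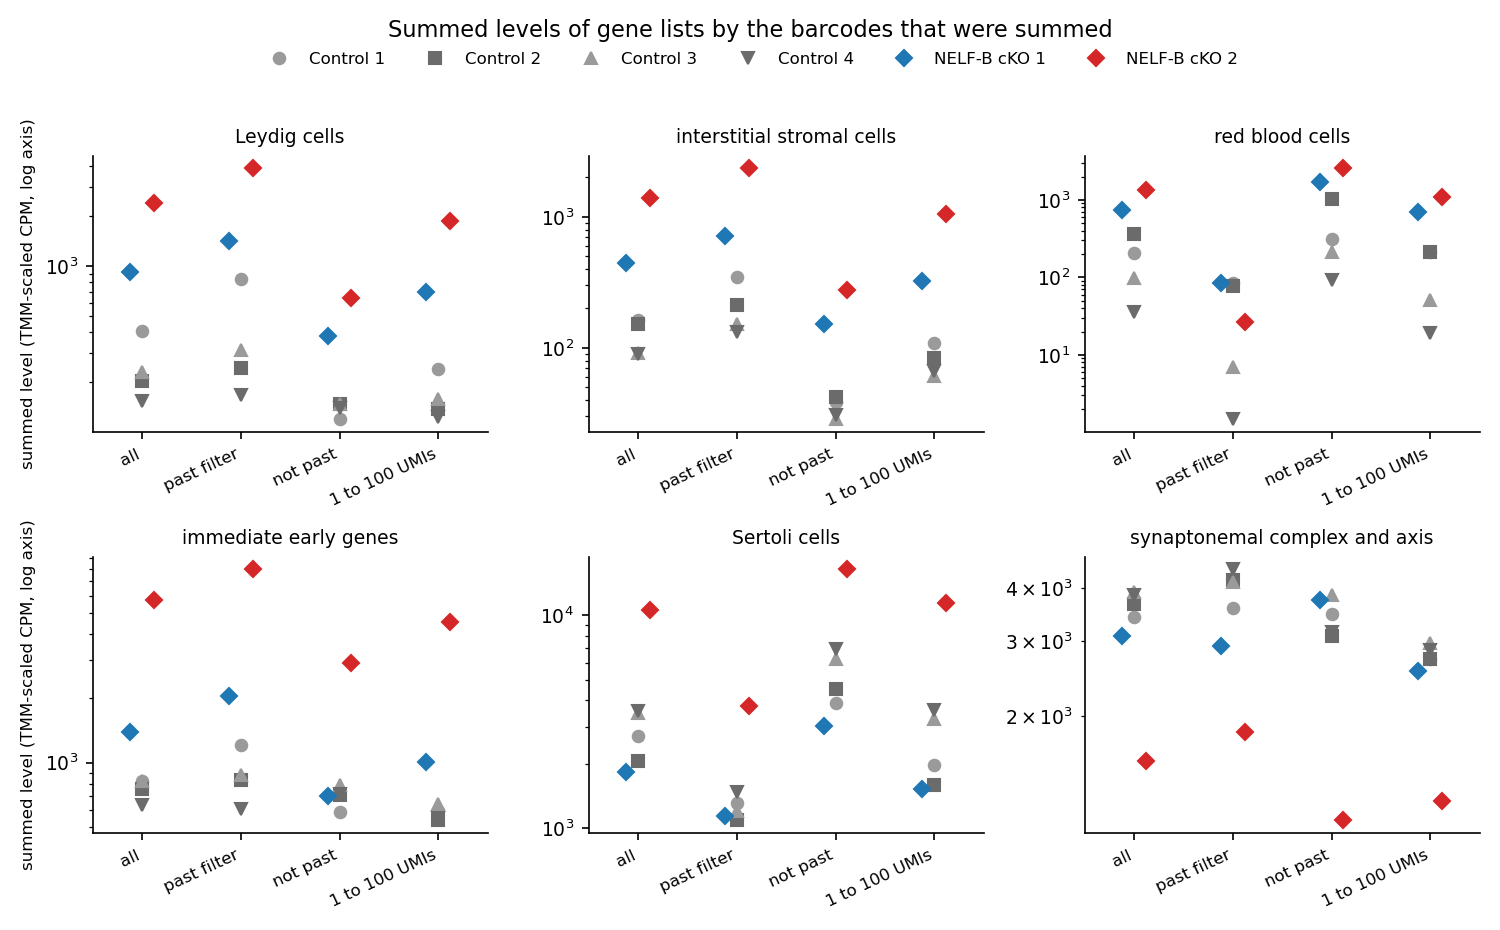
Each panel gives the summed CPM of a gene list on a log axis for all barcodes, those past the filter of the study, those not past it and those with 1 to 100 UMIs, with 1 point per mouse. Leydig and stromal genes lie above the controls in both NELF-B cKO mice in every class, whereas red blood cell genes do so in 3 of the 4 classes and immediate early genes do so in all but the barcodes not past the filter.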

How the data were processed

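Testes of PND24 mice were profiled with 10x 3' single cell RNA-seq, with 1 library per mouse. The authors deposited raw UMI count matrices of all barcodes. Per the submitters' notes and methods, reads were processed with Cell Ranger 6.1.1 and 7.0.0 on mm10, while the matrix headers give the software version as Cell Ranger 4, and the study used Seurat 4.2.0 and DESeq2 1.36. Here the counts of every barcode were summed per mouse, which mixes cells with free RNA. The sums of all 9 mice, the 3 TDP-43 cKO mice included to share the spread, were fitted with edgeR 4.0.16 (filterByExpr, TMM, quasi-likelihood test, residual df 6) in R 4.3.3, with Benjamini-Hochberg adjustment over 25540 genes and calls at an adjusted p under 0.05. The script was tested on simulated data. A mouse's log2 ratio adds 0.1 CPM. Gene positions are from GENCODE for GRCm38.

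Members and lists were chosen with earlier results of these data known. Named genes are the NELF subunits, genes the study names, the 3 highest and 2 most changed members of each list, the 10 largest changes each way with at least 5 CPM, and the 5 largest ratios between the cKO mice each way. Since no gene was called, the 10 were filled from genes outside the control range at an unadjusted p under 0.05, and motif shares are given for genes outside that range. Alternatives were DESeq2 1.42.0, other scalings and filters, parts of the barcodes, each mouse left out and a replicate block. Figures used matplotlib 3.10.9.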

Additional observations from a re-analysis of the deposited data

Results flagged for a closer look

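Among the 4 control mice, 1 mouse lay far from the other 3 in 6 of 118 values tested, by Dixon's test, which flags about 1 in 20 groups by chance, so that 6 is about the number chance gives. Control 1 was high in the summed axoneme genes at 10707 CPM and in the macrophage gene C1qa at 28.0 CPM, and low in the summed p53 targets at 379 CPM. Control 2 was low in the summed MHC class II genes at 67.8 CPM and in Pgk1 at 13.6 CPM. Control 4 was low in the chemokine Cxcl1 at 6.74 CPM.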

How the results depend on the processing

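DESeq2 in place of edgeR called 1053 genes higher and 173 lower instead of 0 and 0, and gave Nelfb a log2 fold change of -2.06 that passed the threshold. With DESeq2 size factors in the edgeR fit the calls stayed at 0 and 0, and the genes outside the control range divided into 3559 above and 3753 below, beside 4202 and 2742. With total UMIs alone, 1740 genes lay below. Over barcodes past the filter 4207 lay below, over the rest 1769 above and 812 below, and over barcodes with 1 to 100 UMIs 2325 above and 1372 below. Leaving out each mouse in turn gave 0 to 6341 genes called higher, 0 to 5940 called lower, 4531 to 11229 above, 2940 to 10732 below, and -2.56 to -1.61 for Nelfb. The upper ends come from NELF-B cKO 2 alone. NELF-B cKO 1 alone had 6057 genes below, and without control 2 the count was 5410. Nelfb passed the threshold with either cKO mouse alone.

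Some log2 fold changes changed sign, mostly of genes in which the cKO mice lay on opposite sides of the control mean. Prm2 was -0.014 with DESeq2 and with its size factors, -0.083 under the replicate block and -0.31 in barcodes with 1 to 100 UMIs. Tnp2 was 0.061 with total UMIs and 0.12 past the filter, and 1700042G07Rik was -0.11 under the block. In barcodes with 1 to 100 UMIs, 1700042G07Rik was -0.48, Prm1 -0.090 and Nelfa 0.022. Leaving out each mouse in turn moved 1700042G07Rik from -9.08 to 1.13, Acta2 from -1.72 to 1.41, Amh from -1.31 to 2.49, Clu from -0.63 to 1.98, H2-Q10 from -1.67 to 3.00, H2al2a from -8.24 to 0.45, Hexim1 from -0.32 to 1.69, Nr4a3 from -0.68 to 1.55, Prm1 from -9.93 to 1.19, Prm2 from -9.27 to 1.06, Spp1 from -1.28 to 2.38, Thbs1 from -1.40 to 2.20 and Tnp2 from -8.77 to 0.92. The cause of these changes was not tested.

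With the replicate number as a block, the calls stayed at 0 and 0 and Nelfb was -2.02 (edgeR adjusted p = 0.729). Deviations from the group means correlated at 0.54 for number 1 and 0.41 for number 2. With 2 cKO mice, the deviations of 1 mirror those of the other, so these are not 2 separate pairs. Control 1 gave 0.54 with cKO 1 and -0.54 with cKO 2. The numbers are therefore not shown to pair mice. Each sum holds at least 121692583 UMIs.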

Other observations

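MHC class II genes, which antigen-presenting cells use to display peptides, were not described above. Their sum was 116, 67.8, 109 and 109 CPM in the controls, 105 in NELF-B cKO 1 and 359 in NELF-B cKO 2. Of 7 genes, 4 lay above and 1 below all controls in both cKO mice, beside 16.5% and 10.7% over all genes. The sum lay within the controls in cKO 1 and above them in cKO 2. The 9 genes that the study names in its text, which are not independent evidence of a direction, held 1 gene above and 2 below. Over all genes these shares were 16.5% and 10.7%. Without control 2, 6 of the 9 lay below, beside 21.3% of all genes, and without control 1, 4 did, beside 13.3%. With DESeq2 size factors, 2 of the 7 MHC class II genes lay above, beside 13.9% of all genes.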
